A study of Arabidopsis thaliana with 82 samples.

Results

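Gene expression above and below a transverse cut through the hypocotyl, the seedling stem, of Arabidopsis thaliana was compared 6 h after cutting. The comparison took 8 of the 82 libraries of the study by their titles: 4 from tissue above the cut (tops) and 4 from tissue below it (bottoms). Each set of 4 held 2 libraries from grafted and 2 from separated plants, and 2 libraries of intact hypocotyls of 6 h served as a reference. All seedlings were Col-0, 7 days old, kept at 20 °C with 8 h of light a day on medium lacking sucrose, and every plant, intact ones included, had lost one cotyledon. Severed plants were either left apart (separated) or had their pieces aligned and joined with those of a different plant (grafted), so a grafted top and the bottom below it came from different seedlings. The labels describe the 2 libraries of each group as independent biological replicates. The p-values measure the spread between such libraries, pooled per gene over all 82 libraries and all times. They do not measure the spread of the 6 h libraries alone, unless a fit on these alone is named. The intact reference was not divided into upper and lower tissue. A difference between upper and lower hypocotyl that was there before cutting therefore cannot be told apart from a response to the cut. Fewer cells of a type and less RNA per cell cannot be told apart in these bulk samples either.

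In an intact seedling sugar made in the cotyledons moves down in the phloem, and auxin made in the shoot moves down the stem through PIN efflux carriers, while water, nitrate and root-made cytokinin move up in the xylem. A transverse cut severs these streams, and grafting restores them as cells adhere, divide and form new phloem and xylem. Auxin switches on Aux/IAA genes within minutes to hours. Loss of sugar switches on a set of dark-induced genes for the breakdown of amino acids and cell walls, among them the asparagine synthetase ASN1. The question addressed is which genes told the sides of the cut apart at this early time, and whether joining the pieces altered that difference.

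Levels are the authors' library-normalised values multiplied by 1 constant so that a median library sums to 1000000, and are written x; where 2 values follow each other they are replicates 1 and 2. Depth, read from the steps between low values, was 10.4 to 14.7 M reads in 9 of the 10 libraries of 6 h and could not be determined for separated bottom replicate 2, and x of 1 stood for 8.88 to 14.7 reads. Differences are on the log2(x + 1) scale with limma's standard error after ±, and a gene is called where the Benjamini-Hochberg adjusted p over 20766 genes tested is under 0.05. Grafted bottom replicate 1 stood apart from the other libraries. It correlated with its partner across genes at 0.971, against 0.988 to 0.992 in the other groups of 6 h, and 49 genes were at least 4-fold above their highest value in the 9 other libraries of 6 h, against 0 or 1 such gene in each of the others. LOX2, a plastid lipoxygenase of jasmonate synthesis that is abundant in leaves, had x of 951 in it and at most 6.72 elsewhere. TCP2, a regulator of leaf growth, had 27.4 against 0 elsewhere, and the leaf gene YAB3 had 18.9 against at most 0.486. The summed level of 17 shoot epidermis and guard cell markers was 1580 in this library, against 696 in grafted bottom replicate 2, 599 to 689 in separated bottoms and 1062 to 1236 in tops.

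Tops and bottoms differed widely, and mostly in the same way whether or not the pieces were joined. 12420 of 20766 genes (59.8%) were called for position: 7091 (34.1%) were higher in tops and 5329 (25.7%) were lower. Of these, 4892 differed at least 2-fold (2671 higher and 2221 lower, 12.9% and 10.7% of genes tested) and 1081 at least 4-fold. In 10528 genes (50.7%) all 4 tops lay on one side of all 4 bottoms, in 6013 of them (29.0%) above and in 4515 (21.7%) below. The median gene differed by 0.07. Without grafted bottom replicate 1 the calls were 12074 (6944 higher and 5130 lower), and 11538 of the 12420 calls were kept in the same direction, with 1 call reversed. Under quantile normalisation, which forces one distribution on all libraries, 52.0% of 12084 calls were higher in tops, against 57.1% of the calls as reported.

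Within grafted plants alone 9291 genes (44.7%) were called, 5370 higher (25.9%) and 3921 lower (18.9%) in tops. Within separated plants alone 10613 (51.1%) were called, 5827 higher (28.1%) and 4786 lower (23.0%). These comparisons share no library. 7747 genes were called in both in the same direction, which is 83.4% of the grafted calls and 73.0% of the separated calls, and 29 were called in both in opposite directions. Across the 20766 genes the grafted and the separated difference correlated at r = 0.869, a description across genes that are not independent of each other. The size was not the same: of the genes called for position, 8186 of 12420 had the larger absolute difference in separated plants, with medians of 0.77 in grafted and 0.91 in separated plants. Leaving out grafted bottom replicate 1 left 8586 grafted calls, and leaving out grafted bottom replicate 2 left 7116.

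The difference of the differences (grafted minus separated) was called for 570 genes (2.74%), 175 higher (0.843%) and 395 lower (1.90%). In 398 of them the sides differed in the same direction in both treatments and more in separated plants, in 15 they differed more in grafted plants, and in 157 the sign was opposite. 486 of the 12420 genes called for position were among them. This test is less precise than that of position, with a median 95% interval of ± 0.64 around the estimate, so that genes not called may still differ between joined and unjoined plants. Its count rests on the libraries used: 426 genes without grafted bottom replicate 1, 930 without grafted bottom replicate 2, and 92 in a fit on the 8 top and bottom libraries of 6 h alone. In that last fit the calls of IAA5, IAA13, RUL1, TMO6, NAC071, LOX1, MSRB6, NCED3, CYP735A2 and Rap2.6L, described below, were lost (limma, adjusted p 0.063 to 0.316).

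**Figure D1:**
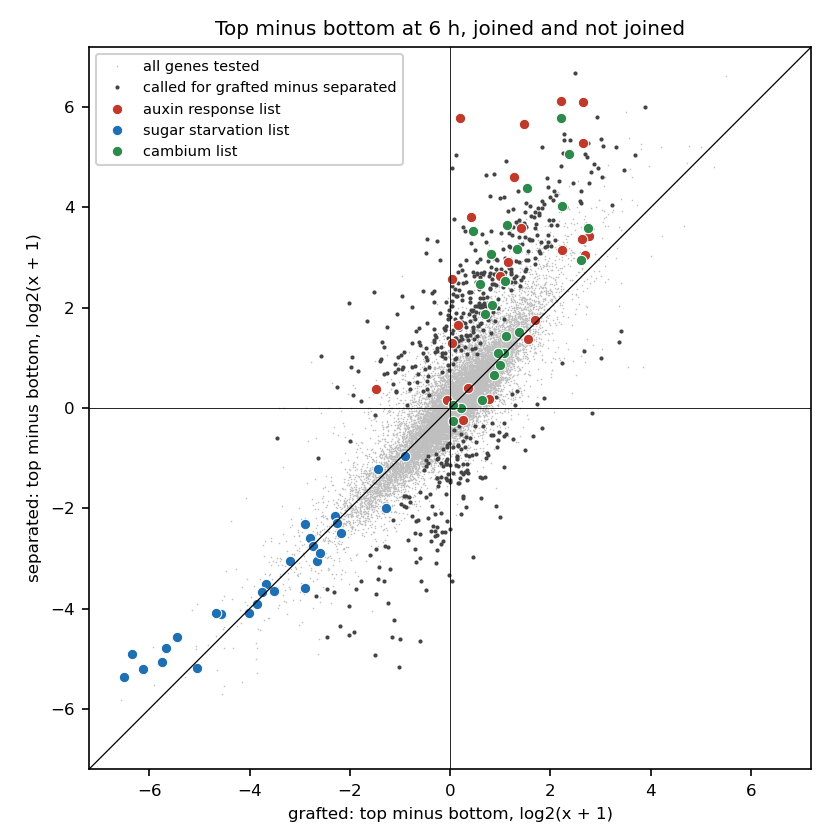
Top minus bottom at 6 h in grafted plants (horizontal axis) and in separated plants (vertical axis), both on the log2(x + 1) scale, for the 20766 genes tested (grey), the 570 genes called for grafted minus separated (dark) and members of 3 gene lists (colours). The sugar starvation genes (blue) lie along the line of equal difference, while auxin response (red) and cambium genes (green) lie mostly above it, where the separated difference is larger.

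Sugar starvation genes had the median farthest from 0 of the 26 lists, and a similar one in grafted and separated plants. All 27 members of the list were lower in tops, beside 25.7% of all genes. Their median was -3.58 (-3.52 in grafted and -3.59 in separated plants, against 0.07 over all genes). All 4 tops lay below all 4 bottoms for 26, beside 21.7% of all genes. None of the 27 was called for grafted minus separated. Without grafted bottom replicate 1 all 27 remained lower, with a median of -3.82. ASN1 (AT3G47340, chromosome 3), the glutamine-dependent asparagine synthetase that stores nitrogen when carbon is short, had x of 2685 and 4302 in grafted bottoms, 5335 and 6542 in separated bottoms, 131 and 78.2 in grafted tops and 180 and 146 in separated tops. All bottoms lay far above all tops, and the intact hypocotyl (1763 and 1461) lay between them. Its difference was -5.12 ± 0.51 (limma, adjusted p = 4.1e-12), -5.06 in grafted and -5.18 in separated plants.

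The other members spanned amino acid breakdown, cell wall breakdown and sugar signalling. GAT1_2.1, a glutamine amidotransferase-like gene, had x of 576 to 1292 in the 4 bottoms and 5.42 to 39.0 in the 4 tops (-5.93 ± 0.45). SEN1, a gene induced by darkness and senescence, had 963 to 2263 in bottoms and 17.9 to 45.5 in tops (-5.67 ± 0.46). These groups did not overlap, and in each the grafted bottom replicate 1 was the lowest bottom. The beta-xylosidase BXL1 (-5.41 ± 0.52), the beta-galactosidase BGAL4 (-5.63 ± 0.58) and the beta-glucosidase DIN2 (-5.01 ± 0.50) break down cell wall and other glycosides. The branched-chain aminotransferase BCAT-2 (-5.22 ± 0.46), the isovaleryl-CoA dehydrogenase IVD (-4.06 ± 0.20), the methylcrotonyl-CoA carboxylase subunit MCCB (-3.58 ± 0.23) and the glutamate dehydrogenase GDH1 (-3.88 ± 0.21) use amino acids as a carbon source. The class II trehalose phosphate synthase-like gene TPS10 differed by -3.24 ± 0.19 and the BTB scaffold gene BT2 by -4.38 ± 0.64. The smallest differences in the list were those of EXL1 (-1.32), which the reference names PHI-1, and KMD4 (-0.93), AT3G59940.

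The motif TATCCA is known from sugar-starved rice alpha-amylase genes. Promoters of ASN1 and of TDT, which is not in the list, are shown because both hold this motif, TDT on both strands. They run from 250 bases before to 50 bases after the annotated gene start in the TAIR10.1 reference (ASN1 at chr3:17441382-17441681, minus strand; TDT at chr5:19291054-19291353, minus strand) and are written 5′ to 3′ on the strand of the gene, with capitals for TATCCA or its complement TGGATA and for the G-box CACGTG.
ASN1: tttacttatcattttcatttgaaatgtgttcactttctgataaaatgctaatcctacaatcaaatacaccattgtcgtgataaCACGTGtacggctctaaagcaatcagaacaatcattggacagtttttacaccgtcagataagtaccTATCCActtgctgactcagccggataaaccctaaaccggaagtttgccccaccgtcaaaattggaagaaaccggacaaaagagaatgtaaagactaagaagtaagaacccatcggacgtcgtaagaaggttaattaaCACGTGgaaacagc
TDT: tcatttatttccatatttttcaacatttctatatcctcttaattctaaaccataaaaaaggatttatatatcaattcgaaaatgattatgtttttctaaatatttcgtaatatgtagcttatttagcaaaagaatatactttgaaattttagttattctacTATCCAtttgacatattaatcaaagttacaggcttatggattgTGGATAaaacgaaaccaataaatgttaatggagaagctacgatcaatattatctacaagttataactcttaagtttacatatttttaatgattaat
TDT (AT5G47560), the malate transporter of the vacuole membrane, had x of 525, 760, 810 and 969 in the bottoms and 15.1, 15.4, 21.9 and 19.4 in the tops (-5.32 ± 0.22, adjusted p = 1.1e-24), with no overlap. TATCCA, searched on both strands, was in the 300 base window of 16.4% of 20563 genes tested with such a window. It was in 28.0% of the 539 genes at least 4-fold lower in tops and in 13.9% of the 541 at least 4-fold higher. In the lists it was in 13 of 27 sugar starvation (48.1%) and 16 of 33 photosynthesis genes (48.5%). The windows of the list members DIN2 and BXL1 do not hold TATCCA, and that of SEN1 does. The G-box was in 8.74% of all windows and in 12.8% of those of genes at least 4-fold lower in tops. These are matches of letters and no evidence of binding.

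Photosynthesis genes were lower in tops as well. All 33 members, with light-harvesting proteins, photosystem subunits and Calvin cycle enzymes, were lower (median -1.60), beside 25.7% of all genes. All 4 tops lay below all 4 bottoms in every one, beside 21.7% of all genes. None of the 33 was called for grafted minus separated. The range was -3.28 for the Rubisco small subunit gene RBCS2B to -1.07 for the photosystem I gene PSAH2. RCA (AT2G39730), the Rubisco activase, had x of 4150, 3436, 2885 and 3781 in the bottoms and 722, 540, 707 and 510 in the tops, with 5107 and 5345 in intact tissue (-2.53 ± 0.22). Both sides lay below the intact hypocotyl here, the tops further: 33 of 33 members were called lower in tops than in intact tissue (median -2.42; 25.3% of all genes were called lower) and 22 of 33 in bottoms (median -0.74; 20.8% of all genes). Light-harvesting and Rubisco small subunit genes have close copies, between which the counting may have split reads.

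Genes for nitrate use followed the same direction. Of 18, 10 were lower and 3 higher in tops (median -0.99), beside 25.7% and 34.1% of all genes. The nitrate reductase gene NIA1 (AT1G77760) had x of 480, 798, 1081 and 1276 in bottoms and 45.6, 39.0, 36.3 and 23.3 in tops (-4.57 ± 0.26, adjusted p = 1.2e-19). Bottoms were near the intact level of 788 and 729, and tops were far below it. The second nitrate reductase NIA2 differed by -3.09 ± 0.19, the BTB gene BT1 by -3.67 ± 0.39, and CIPK23, the kinase that regulates the nitrate transceptor, by -1.29 ± 0.14. The nitrate transporter NRT2.1, named NRT2:1 in the reference, was higher in tops (0.94), as were the root-type ferredoxin FD3 (0.46) and its reductase RFNR1 (0.66).

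Of 17 sugar-induced genes of starch synthesis and anthocyanin regulation 8 were higher and 3 lower in tops (median 1.15), beside 34.1% and 25.7% of all genes. In grafted plants alone 5 were higher, beside 25.9% of all genes. The count and median depended on the setting: 6 higher with a median of 0.39 at a pseudocount of 5, 4 higher in the fit on the 8 libraries alone, and 5 higher with a median of 0.58 without grafted bottom replicate 2. The glucose-1-phosphate adenylyltransferase subunits APL3 (2.26 ± 0.40) and APL4 (1.23 ± 0.24), the starch synthase GBSS1 (2.15), the beta-amylase BAM5 (2.37 ± 0.26) and the anthocyanin regulator PAP1 (2.87) were among the 8. The flavonoid enzymes CHI (-1.37), F3H (-1.27) and UGT78D2 (-0.68) were the 3 lower ones. APL3 showed the library that stands apart: x was 38.4 in grafted bottom replicate 1 but 3.56, 5.99 and 3.72 in the other bottoms, against 34.8 to 61.3 in tops. GPT2, the sugar-induced glucose 6-phosphate transporter of plastids, had 25.4 in that library, 0 to 0.0809 in the other bottoms and 3.56 to 15.9 in tops (2.02 ± 0.62), and its call was lost in the fit on the 8 libraries alone (limma, adjusted p = 0.187) and without grafted bottom replicate 2 (0.227).

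**Figure D2:**
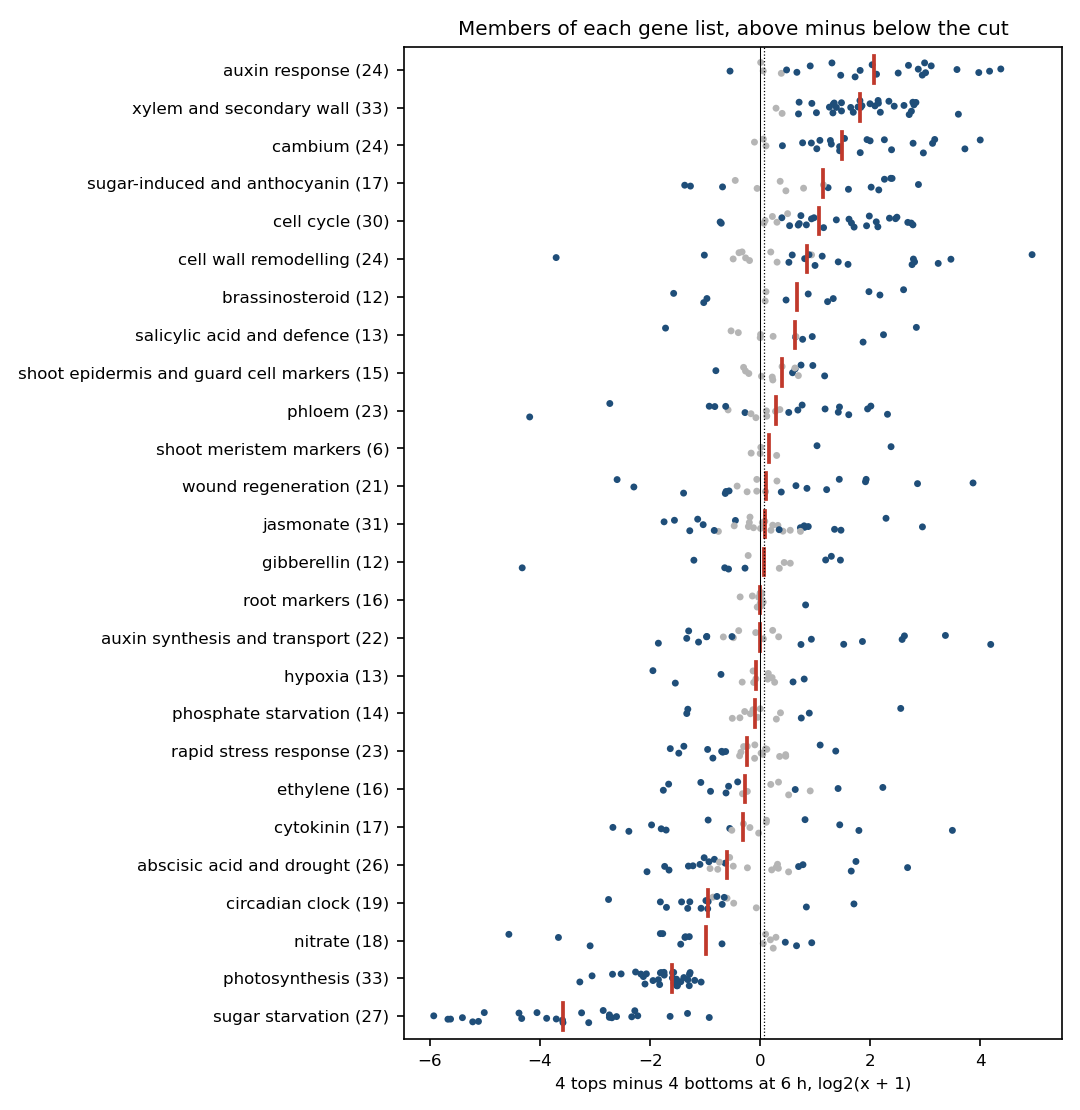
Top minus bottom at 6 h (horizontal axis, log2(x + 1), 4 tops against 4 bottoms) for every tested member of 26 gene lists, ordered by the list's median, with the number of members tested in brackets. Dark points are called, grey points are not, red bars are list medians and the dotted line is the median of all genes. The sugar starvation and photosynthesis lists lie wholly below 0, and the cambium and xylem lists have no called member below 0.

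Auxin-response genes were higher in tops, and for many the bottoms of grafted plants stood far above those of separated plants. Of 24 tested members of the list 20 were higher and 1 was lower (median 2.07), beside 34.1% and 25.7% of all genes. All 4 tops lay above all 4 bottoms for 17, beside 29.0% of all genes. The median difference was 1.22 in grafted and 2.98 in separated plants. Called for grafted minus separated were 12 of the 24, each of them lower, beside 1.90% of all genes. Among these 12, IAA5 and IAA13 lost the call in the fit on the 8 libraries alone (limma, adjusted p 0.0634 and 0.107). Leaving out grafted bottom replicate 1 gave 19 higher, 1 lower and again 12 calls. IAA19 (AT3G15540), an Aux/IAA repressor that auxin induces, had x of 34.8 and 37.8 in grafted tops, 65.9 and 74.8 in separated tops, 4.61 and 5.34 in grafted bottoms and 0.0809 and 0 in separated bottoms. Its difference was 2.64 in grafted and 6.10 in separated plants, and the difference of these, -3.45 ± 0.40 (adjusted p = 4.2e-08), had a 95% interval of -4.27 to -2.64.

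Promoters of 2 Aux/IAA genes are shown because both hold TGTCTC, the canonical auxin response element bound by auxin response factors. Capitals mark TGTCTC, its variant TGTCGG or the complement CCGACA, and in IAA19 also a G-box. IAA19 is at chr3:5263751-5264050 on the plus strand, and IAA5 at chr1:5366448-5366747 on the minus strand, both in TAIR10.1.
IAA19: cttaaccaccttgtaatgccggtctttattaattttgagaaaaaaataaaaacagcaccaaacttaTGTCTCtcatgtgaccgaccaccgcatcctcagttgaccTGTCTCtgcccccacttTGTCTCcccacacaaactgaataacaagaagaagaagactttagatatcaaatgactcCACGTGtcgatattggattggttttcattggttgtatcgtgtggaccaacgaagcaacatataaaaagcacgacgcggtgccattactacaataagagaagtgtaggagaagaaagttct
IAA5: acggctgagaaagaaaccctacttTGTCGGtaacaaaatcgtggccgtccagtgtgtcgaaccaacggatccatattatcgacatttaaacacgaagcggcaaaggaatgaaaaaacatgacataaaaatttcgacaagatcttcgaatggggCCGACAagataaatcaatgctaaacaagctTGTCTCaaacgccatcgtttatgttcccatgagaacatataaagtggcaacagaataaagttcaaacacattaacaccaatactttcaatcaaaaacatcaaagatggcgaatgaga
TGTCTC on either strand was in 13.7% of all 20563 windows, in 19.6% of those of genes at least 4-fold higher in tops, in 12.4% of those at least 4-fold lower, and in 11 of 24 auxin-response genes (45.8%). The IAA19 window holds it at 3 places. The windows of IAA2 and HAT2 hold neither TGTCTC nor TGTCGG.

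IAA2 (AT3G23030) showed the contrast between treatments most plainly. It had x of 71.9 and 71.7 in grafted tops, 60.3 and 65.8 in grafted bottoms, 103 and 111 in separated tops, but 1.21 and 0.728 in separated bottoms, with 39.7 and 49.8 in intact tissue. The grafted sides differed by 0.19, the separated sides by 5.79, and the difference of -5.60 ± 0.49 was the most negative among the named genes. IAA1 was 1.48 higher in tops of grafted and 5.67 in tops of separated plants (-4.20 ± 0.51). HAT2 (AT5G47370), an auxin-induced homeobox gene of the HD-ZIP II class, had 62.2 and 67.2 in grafted tops, 13.4 and 12.9 in grafted bottoms, 83.0 and 88.9 in separated tops and 0.566 and 0 in separated bottoms. Grafted bottoms were at the intact level of 11.8 and 13.3, and separated bottoms were near 0. For IAA5 (AT1G15580) the separated bottoms were both listed at 0 and the intact libraries at 0.0809 and 0, grafted bottoms had 3.08 and 1.78, and tops had 18.5 to 41.9 (position 3.97 ± 0.15). IAA13 differed by 2.03 ± 0.14, with -1.75 ± 0.27 for grafted minus separated.

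For some auxin-induced genes no difference between treatments was called. IAA29 had x of 6.72, 8.17, 9.31 and 10.4 in tops, 0.0809 and 0.405 in grafted bottoms, and was listed at 0 in both separated bottoms. Both kinds of bottom were low (3.11 ± 0.21), and grafted minus separated was -0.67 ± 0.42 (adjusted p = 0.65), with an interval of -1.52 to 0.18. The auxin-conjugating enzyme gene GH3.3 had a like course, with 5.10 to 16.6 in tops and 0 to 0.809 in bottoms (3.00 ± 0.33). IAA14 was the 1 member lower in tops (-0.55).

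Carriers of auxin were higher in tops for some members and lower for others. PIN3 (AT1G70940), the lateral efflux carrier, had 168 and 176 in grafted tops, 122 and 207 in grafted bottoms, 152 and 186 in separated tops, and 5.34 and 3.16 in separated bottoms. It was higher in tops over both treatments (2.58), its grafted sides overlapped, and the difference between treatments was -4.93 ± 0.37 (adjusted p = 1.7e-13). The efflux carriers PIN6 (2.62 ± 0.15) and PIN7 (1.86), the influx carriers LAX2 (3.36 ± 0.21) and AUX1 (0.93), and the ABC transporters ABCB1 (1.52) and ABCB19 (0.74) were also higher in tops. The influx carriers LAX1 (-1.30) and LAX3 (-0.97), the PIN-like genes PILS5 (-1.85) and PILS3 (-1.12), and the auxin synthesis genes YUC8 (-1.33), TAR2 (-0.97) and YUC5 (-0.51) were lower. In the whole list 8 were higher and 7 lower of 22 (median -0.01), beside 34.1% and 25.7% of all genes. PIN3, PIN4 and PIN7 were among those called for grafted minus separated.

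**Figure D3:**
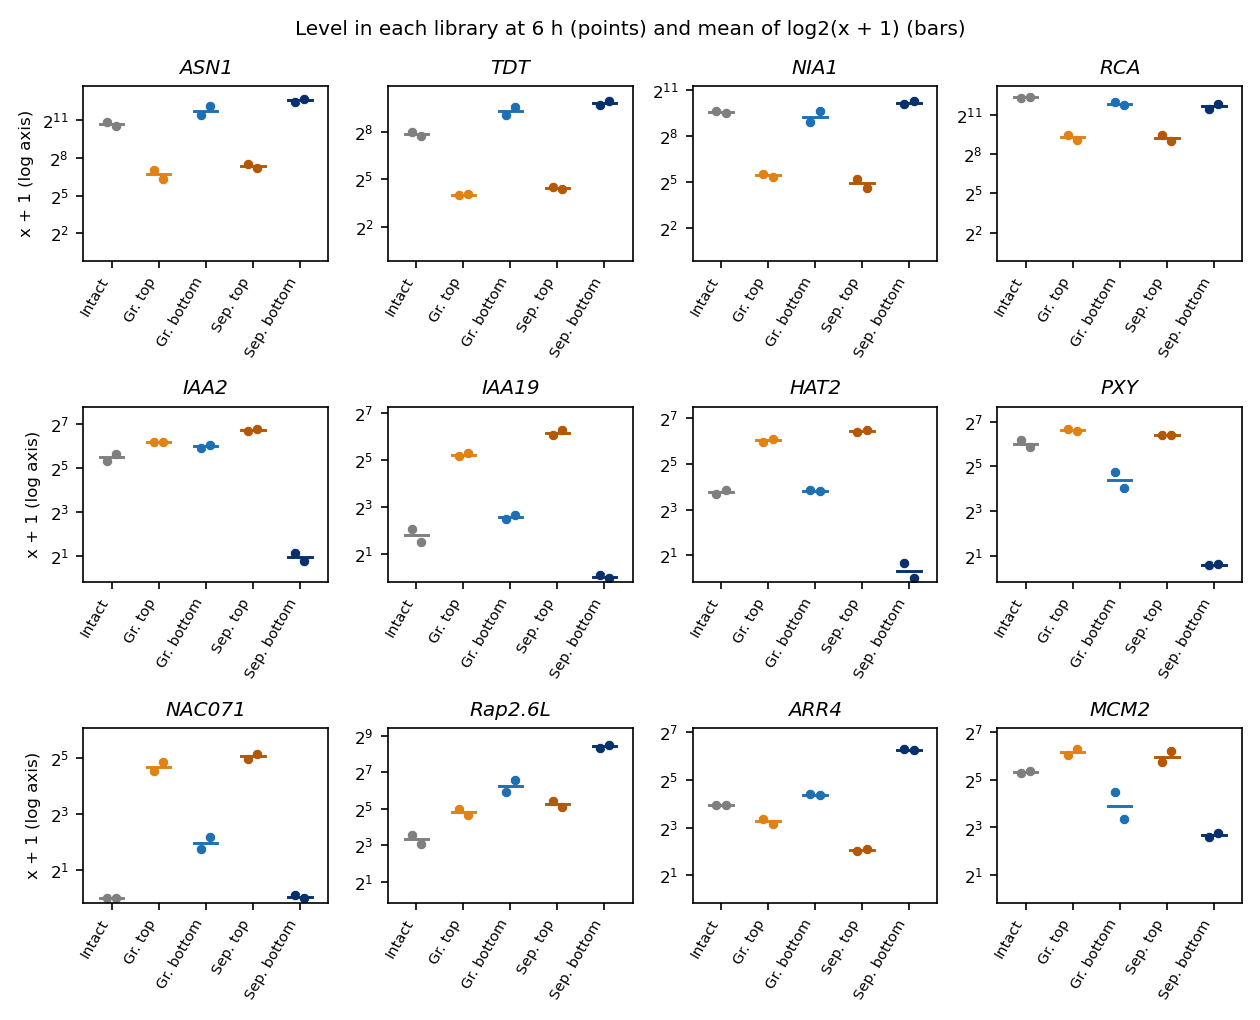
Level of 12 genes in each library of 6 h (points; x + 1 on a log axis) in intact hypocotyls, grafted (Gr.) tops and bottoms and separated (Sep.) tops and bottoms; bars are the mean of log2(x + 1) of 2 replicates. ASN1, TDT, NIA1 and RCA are low in all 4 tops, while IAA2 is low in the 2 separated bottoms alone, and IAA19, HAT2, PXY and NAC071 are, of the cut groups, lowest there and intermediate in grafted bottoms.

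Cambium genes were higher in tops, and more so in separated plants. Of 24 members 21 were higher and none lower, beside 34.1% and 25.7% of all genes. The median was 1.49, with 1.04 in grafted and 2.27 in separated plants. All 4 tops lay above all 4 bottoms for 20, beside 29.0% of all genes. For grafted minus separated 11 were called lower, beside 1.90% of all genes. PXY (AT5G61480), the receptor kinase that maintains cambial stem cells, had x of 101 and 94.3 in grafted tops, 82.8 and 82.9 in separated tops, 26.3 and 15.6 in grafted bottoms and 0.486 and 0.566 in separated bottoms. Tops were slightly above the intact 70.8 and 57.5, so the difference (4.0 ± 0.20) lay mostly below the cut. ANT, an AP2 factor of growing tissue, differed by 3.72 ± 0.16 (-2.69 ± 0.32 for grafted minus separated), the HD-ZIP III gene HB-8 by 2.96 ± 0.17 (-2.87 ± 0.34) and the receptor kinase RUL1 by 2.39 ± 0.12 (-2.52 ± 0.24). The call of RUL1 for grafted minus separated was lost in the fit on the 8 libraries alone (limma, adjusted p = 0.0683). The cambial homeobox gene WOX4 (2.26), the cytokinin-activating enzymes LOG3 (3.17) and LOG4 (1.44) and the D-type cyclin CYCD3;1 (2.78 ± 0.17) were among the other 17. CYCD3;1 was not called for grafted minus separated (-0.34 ± 0.33, interval -1.0 to 0.33).

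TMO6 (AT5G60200), a DOF factor of young vascular tissue, had x of 147 and 155 in grafted tops, 146 and 135 in separated tops, 77.7 and 155 in grafted bottoms and 9.95 and 12.6 in separated bottoms, with 26.5 and 21.1 in intact tissue. Grafted bottoms overlapped with tops, and only the separated bottoms were below intact (-3.08 ± 0.38 for grafted minus separated), a call lost in the fit on the 8 libraries alone (limma, adjusted p = 0.0924). The DOF factor HCA2 was higher in tops by 0.85 ± 0.22, with grafted bottoms at 10.5 and 17.9, separated bottoms at 5.10 and 4.21 and tops at 11.9 to 18.3.

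Xylem and secondary wall genes were higher in tops with little difference between treatments. Of 33 tested members 31 were higher and none lower, beside 34.1% and 25.7% of all genes. The median was 1.81, with 1.63 in grafted and 1.90 in separated plants. All 4 tops lay above all 4 bottoms for 27, beside 29.0% of all genes. The 1 member called for grafted minus separated was ACL5 (-3.79), the thermospermine synthase that restrains xylem maturation. Against intact tissue the sides differed: 29 of 33 were lower in bottoms (median -1.76) and none higher, while in tops 5 were higher and 4 lower. Of all genes 20.8% were lower in bottoms, and in tops 27.9% were higher and 25.3% lower. VND7, the NAC master switch of protoxylem vessels, was low everywhere, with x of 2.67 to 3.16 in tops and 0.0809 to 0.243 in bottoms (1.83 ± 0.17), and VND1 had 2.83 to 3.56 against 0 to 0.405 (1.81 ± 0.17). The fasciclin-like gene FLA12 differed by 2.15 ± 0.18, the HD-ZIP III gene REV by 1.69 ± 0.14, the secondary wall cellulose synthase genes CESA4, CESA7 and CESA8 by 2.08, 2.34 and 2.71, and the xylem cysteine protease XCP1 by 3.6.

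Phloem genes were called in both directions, beside 34.1% higher and 25.7% lower of all genes. Of 23, 10 were higher and 6 lower in tops (median 0.28), and without grafted bottom replicate 1 the lower ones were 3. Those higher included genes known from early sieve element formation, the receptor kinase BAM3 (1.95 ± 0.16), the polar proteins OPS (1.42 ± 0.15) and BRX (2.01 ± 0.21), and AT4G29920 (SMXL4, 2.31 ± 0.18). The sucrose exporters SWEET11 (-4.19) and SWEET12 (-2.73) and the companion cell sucrose loader SUC2 (-0.82 ± 0.32) were among the lower ones. SUC2 had x of 120 in grafted bottom replicate 1 against 41.6 to 53.8 in the other bottoms and 27.6 to 38.6 in tops, and its call was lost without that library (limma, adjusted p = 0.193), as it was without any of 3 other libraries (0.063 to 0.077). SWEET11 and SWEET12 are also known to respond to sugar and stress.

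Cell cycle genes were higher in tops in both treatments. Of 30, 23 were higher and 2 lower (median 1.06), beside 34.1% and 25.7% of all genes. None was called for grafted minus separated. The larger differences included those of the MCM helicase subunits MCM2 (2.77 ± 0.19), MCM6 (2.74 ± 0.18), PRL (MCM7, 2.68 ± 0.18) and MCM4 (2.35 ± 0.17), and the clamp PCNA1 (2.46). MCM2 (AT1G44900) had x of 65.4, 78.4, 52.5 and 72.3 in tops, 21.4 and 9.14 in grafted bottoms, 5.10 and 5.83 in separated bottoms and 38.0 and 40.1 in intact tissue, so that tops were above and bottoms below intact. The B-type cyclin CYCB1;2 differed by 0.74, the kinase CDKB2;1 by 0.69 and the cytokinesis syntaxin KNOLLE by 0.98, while AUR1 (-0.73) and HINKEL (-0.71) were lower in tops. Against intact tissue 25 of 30 were lower in bottoms (median -1.94) and none higher, and in tops 7 were higher and 15 lower (median -0.56). Of all genes 20.8% were lower in bottoms, and in tops 27.9% were higher and 25.3% lower. Without grafted bottom replicate 2 MCM2, MCM4, MCM6 and PRL were called lower for grafted minus separated (-1.26 to -1.58).

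Cell wall remodelling genes included some of the largest differences. Of 24, 14 were higher and 2 lower in tops (median 0.85), beside 34.1% and 25.7% of all genes. XTH20 (AT5G48070), a xyloglucan endotransglucosylase, had x of 78.3 and 73.9 in grafted tops, 63.4 and 67.6 in separated tops, 3.56 and 5.02 in grafted bottoms and 0.0809 and 0 in separated bottoms (4.94 ± 0.28, adjusted p = 9.5e-20). Intact hypocotyls had 0 and 4.37, below all tops. The expansins EXPA5 (3.46 ± 0.31) and EXP3 (EXPA3, 2.78 ± 0.20) and XTH9 (2.80 ± 0.26) were also higher in tops, whereas XTH24 (-3.71) and XTH23 (-1.02) were lower. The 12 genes that the naming rule took as largest included further wall and surface genes: the glucomannan synthases ATCSLA09 (4.71 ± 0.40) and CSLA02 (4.11 ± 0.18), the glycosyl hydrolase family 9 gene GH9B8 (4.14 ± 0.37) and the lipase LTL1 (5.11 ± 0.32). LTL1 had 36.4 to 63.8 in tops, 76.6 and 73.9 in intact tissue and 0 to 2.43 in bottoms. That group also held IAA19 and HAT2, described above, and the myrosinase-binding gene MBP2 (5.03 ± 0.37), the major latex protein-like gene MLP423 (4.99 ± 0.35), the leucine-rich repeat gene FLR1 (4.40 ± 0.28) and the glutathione transferase GSTU20 (4.18 ± 0.46). The 12 taken as smallest included, beside starvation genes and TDT, the beta-xylosidase XYL4 (-5.02 ± 0.25), the glyoxalase GLYI7 (-5.13 ± 0.31), the RING ubiquitin ligase gene ATL15 (-4.94 ± 0.17) and the ferritin FER1 (-4.93 ± 0.28). All 23 of the calls of this kind reported here held under every alternative tried.

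Genes of wound regeneration were raised on both sides, and position set apart particular members. Against intact tissue 18 of 21 were called higher in tops (median 2.0; 27.9% of all genes were called higher) and 18 in bottoms (median 2.04; 18.9%), and none was lower on either side. Between the sides 9 were higher and 6 lower in tops (median 0.10), beside 34.1% and 25.7% of all genes. NAC071 (AT4G17980), the auxin-linked factor of tissue reunion in cut stems, had x of 22.1 and 28.1 in grafted tops, 30.5 and 34.2 in separated tops, 2.35 and 3.56 in grafted bottoms, 0.0809 and 0 in separated bottoms and 0 in both intact libraries (3.87 ± 0.19, with -2.27 ± 0.39 for grafted minus separated). The AP2 growth factors AIL5 (PLT5, 2.86 ± 0.20) and AIL6 (PLT3, 1.91 ± 0.18) were higher in tops too. AT5G07310, for which the reference gives ERF115 as a synonym, had 101, 95, 104 and 96.8 in tops, 32.5 and 42.7 in grafted and 22.7 and 12.9 in separated bottoms, and at most 0.324 in intact tissue (1.92 ± 0.22). Both sides were far above intact, the tops most.

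Rap2.6L (AT5G13330), the ERF factor known as RAP2.6L that is linked to loss of auxin in cut stems, was the other way round. It had x of 59.2 and 94.2 in grafted bottoms, 327 and 357 in separated bottoms, 31.2 and 23.8 in grafted tops and 41.9 and 32.9 in separated tops, with 11.0 and 7.53 in intact tissue. All bottoms lay above all tops (-2.30 ± 0.22), and separated bottoms above grafted ones (1.75 ± 0.45 for grafted minus separated, adjusted p = 0.017). That call was lost without grafted bottom replicate 1 (1.42, limma, adjusted p = 0.169) and without any of 3 other libraries (0.078 to 0.126). Its relative RAP2.6 had 424 and 416 in separated bottoms and 58.3 to 94.8 in the other cut libraries (2.51 ± 0.60 for grafted minus separated, a call lost without separated top replicate 2, limma, adjusted p = 0.0611). RAP2.4 (AT1G78080), whose synonyms include WIND1, the wound-induced dedifferentiation factor, had 442 to 700 in bottoms and 536 to 564 in tops (-0.06 ± 0.12, adjusted p = 0.70), above the intact 231 and 250 on both sides. The peptide hormone gene PSK2 was lower in tops (-2.6).

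Of 17 cytokinin genes 7 were lower and 4 higher in tops (median -0.31), beside 25.7% and 34.1% of all genes. For grafted minus separated ARR4, ARR6 and CYP735A2 were called higher and the other 14 were not called, and the call of CYP735A2 was lost without grafted bottom replicate 1 (limma, adjusted p = 0.0612). ARR4 (AT1G10470), a type-A response regulator that cytokinin induces, had x of 77.4 and 76.1 in separated bottoms, 20.4 and 19.5 in grafted bottoms, 9.31 and 7.93 in grafted tops, 3.08 and 3.24 in separated tops and 14.6 in both intact libraries. The order of the 4 cut groups held in every library (position -2.68 ± 0.16, grafted minus separated 3.1 ± 0.32). RR5 (ARR5, -1.97 ± 0.26), ARR9 (-1.71 ± 0.22) and the trans-zeatin enzyme gene CYP735A2 (-2.39 ± 0.25) were lower in tops. ARR7 (0.81), the response factor CRF2 (1.79) and the cytokinin oxidases CKX5 (1.44) and CKX6 (3.49) were higher.

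The other genes with the largest positive difference between treatments shared the pattern of a peak in separated bottoms. The kinase MAPKKK19 had x of 36.8 and 35.1 there and 0.486 to 2.91 in the other cut libraries (3.59 ± 0.53), the acyltransferase GPAT1 had 55.8 and 54.6 against 0.486 to 4.05 (3.42 ± 0.43), and the lipoxygenase LOX1 had 133 and 113 against 10.4 to 23.7 (3.29 ± 0.58). The methionine sulfoxide reductase MSRB6 had 450 and 351 against 10.8 to 110 (2.56 ± 0.69), a call lost in 8 of 17 alternatives, 5 of which left out 1 library. The call of LOX1 was lost in the fit on the 8 libraries alone (limma, adjusted p = 0.112). On the other side, RGF9, a root meristem growth factor peptide gene, had 0.89 and 0.566 in separated bottoms and 30.9 to 46.4 in the other cut libraries (-4.74 ± 0.58). NCED3, the rate-limiting enzyme of abscisic acid synthesis, had 12.2 and 4.94 in grafted bottoms, 0 and 0.0809 in separated bottoms and 11.6 to 25.9 in tops, with at most 0.0809 in intact tissue (-3.93 ± 0.59), and its call was lost in the fit on the 8 libraries alone (limma, adjusted p = 0.0839).

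Other hormone lists were mixed, beside 34.1% higher and 25.7% lower of all genes. Of 12 gibberellin genes 3 were higher and 5 lower in tops (median 0.06), 2 lower without grafted bottom replicate 1, and the gibberellin-induced gene GASA1 (-4.32 ± 0.24) and the receptor GID1A (-1.21 ± 0.13) were the clearest. GA2OX8 was called lower (-0.64 ± 0.20), but its values were 4.53 in grafted bottom replicate 1 and at most 0.0809 in the 7 other cut libraries. That call was lost without the library (-0.03, limma, adjusted p = 0.856) and in the fit on the 8 libraries alone (0.36). Of 12 brassinosteroid genes 7 were higher and 3 lower (median 0.67): the synthesis gene DWF4 (1.97 ± 0.24) and the growth regulators PRE5 (1.33 ± 0.15), KDR (PRE6, 2.6 ± 0.32) and BEE1 (2.17 ± 0.33) were higher, and the synthesis genes BR6OX2 (-1.57), CPD (-1.03) and ROT3 (-0.97) lower. Of 16 ethylene genes 3 were higher and 7 lower (median -0.28). The ACC synthase gene ACS7 had x of 32.0 and 34.0 in separated bottoms, 7.12 and 12.9 in grafted bottoms, 3.32 to 5.66 in tops and 0 in both intact libraries (-1.76 ± 0.23). The ACC oxidase EFE (-1.66 ± 0.25) and the receptors ERS1 (-0.90 ± 0.13) and ERS2 (-1.08 ± 0.18) were lower in tops, and the factor ORA59 (2.23) higher.

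Of 26 abscisic acid and drought genes 10 were lower and 5 higher in tops (median -0.60), beside 25.7% and 34.1% of all genes. The zeaxanthin epoxidase ABA1 (-1.74 ± 0.14), the aldehyde oxidase AAO3 (-1.02 ± 0.11) and the homeobox genes HB-12 (-1.66 ± 0.20) and HB-7 (-1.09 ± 0.17) were lower, NCED3 (2.68 ± 0.30) higher. Of 31 jasmonate genes 9 were higher and 7 lower, beside 34.1% and 25.7% of all genes. Their median was 0.08, with 0.53 in grafted and -0.41 in separated plants. The storage protein genes VSP2 (2.95 ± 0.63) and VSP1 (2.29 ± 0.53), OPCL1 of jasmonate synthesis (1.47 ± 0.26) and the repressor JAZ5 (1.35 ± 0.33) were higher in tops. JAZ10 (AT5G13220) had 65.9 and 54.6 in grafted tops, 22.4 and 19.2 in grafted bottoms, 59.1 and 56.2 in separated tops and 112 and 97.6 in separated bottoms. The sides were thus in opposite order in the treatments, but only the grafted difference was called (1.49, limma, adjusted p = 0.0046). The separated one was not (-0.85, adjusted p = 0.1). JAZ10 differed by 0.32 ± 0.31 for position and by 2.33 ± 0.62 for grafted minus separated (adjusted p = 0.023). That last call was lost in 7 of 8 fits that left out a library. LOX2 was called lower in tops (-1.75 ± 0.75) and was called higher (0.73, limma, adjusted p = 0.00178) once grafted bottom replicate 1 was left out.

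Among 13 tested salicylic acid and defence genes 6 were higher and 1 lower in tops (median 0.64), beside 34.1% and 25.7% of all genes. The salicylic acid exporter EDS5 had x of 21.1 to 30.8 in tops and 1.94 to 3.48 in bottoms (2.84 ± 0.28), and the indole glucosinolate enzymes CYP79B2 (2.24 ± 0.30) and CYP79B3 (1.87 ± 0.34) were higher, PAD4 (-1.72) lower. Rapid stress genes were raised on both sides against intact tissue, 15 of 23 in tops and 16 in bottoms, beside 27.9% and 18.9% of all genes. In tops 8 were lower than in bottoms and 2 higher (median -0.24), beside 25.7% and 34.1% of all genes. WRKY6 had 129 to 174 in tops, 168 to 286 in bottoms and 7.44 and 5.91 in intact tissue (-0.63 ± 0.18). The touch-induced xyloglucan gene TCH4 (-1.63 ± 0.33) and the zinc finger genes ZAT6 (-1.48 ± 0.28) and STZ (ZAT10, -0.96 ± 0.23) were lower in tops.

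Of 19 clock genes 13 were lower and 2 higher in tops (median -0.95), beside 25.7% and 34.1% of all genes. All these libraries were of the same time. RVE1 had x of 63.9 to 97.3 in bottoms and 7.36 to 15.3 in tops, with 31.1 and 21.8 in intact tissue (-2.76 ± 0.37). The evening complex gene ELF4 (-1.81 ± 0.21), its partner BOA (-1.32 ± 0.28) and the pseudo-response regulator PRR7 (-1.70 ± 0.22) were lower, while CCA1 and LHY were not called. GRP7 (CCR2, 1.70), an RNA-binding output gene, and the growth factor PIF4 (0.84) were higher. The evening element AAAATATCT was in 7 of 19 windows of this list (36.8%), against 3.03% of all windows and 3.90% of those of genes at least 4-fold lower in tops. Hypoxia and phosphate lists were near the middle, beside 34.1% higher and 25.7% lower of all genes. Of 13 hypoxia genes 2 were higher and 3 lower (median -0.08), with the alcohol dehydrogenase ADH1 at 6.07 to 11.2 in bottoms and 2.02 to 2.67 in tops (-1.54 ± 0.23). Of 14 phosphate starvation genes 3 were higher and 2 lower (median -0.09), with the transporter PHT1;4 higher (2.55 ± 0.43).

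Markers of other tissues were checked for all 4 groups. Among 16 root markers the summed x was 2.91 to 5.99 in bottoms and 5.50 to 7.12 in tops, and COBL9, EXPA7, EXPA18, PLT1 and IRT1 were listed at 0 in all 10 libraries. Of 6 tested shoot meristem markers STM (2.38 ± 0.22; x of 4.29 to 6.96 in tops and 0 to 0.486 in bottoms) and KNAT6 (1.03 ± 0.12) were higher in tops, and WUS, CLV3 and CUC2 were listed at 0 throughout. The list summed to 118.5 to 129.5 in tops and 74.2 to 127 in bottoms. Of 15 tested shoot epidermis and guard cell markers 5 were higher and 1 lower (median 0.40), 8 higher without grafted bottom replicate 1. Of all genes 34.1% were higher and 25.7% lower. With no library left out, both shoot lists were near this share of higher genes. The part of these markers in the results above was not tested.

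Set against the intact hypocotyl, both sides differed from it. As the intact tissue was not divided, these differences may hold some that lay between upper and lower hypocotyl before cutting. 11059 genes (53.3%) were called for tops against intact, 27.9% of genes higher and 25.3% lower, and 8241 (39.7%) for bottoms, 18.9% higher and 20.8% lower, comparisons that share the 2 intact libraries and are given side by side. Of the 12420 genes called for position, 5009 were called against intact in tops alone, 2372 in bottoms alone, 3528 in both and 1511 in neither. Sugar starvation genes lay below intact in tops (23 of 27 lower, 1 higher, median -2.32) and above it in bottoms (17 higher, none lower, median 1.57). Auxin-response genes were higher than intact in tops (15 of 24, with 1 lower) and in bottoms 3 were higher and 8 lower. Cambium genes were higher in tops for 14 of 24 (2 lower) and lower in bottoms for 13 (1 higher).

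**Figure D4:**
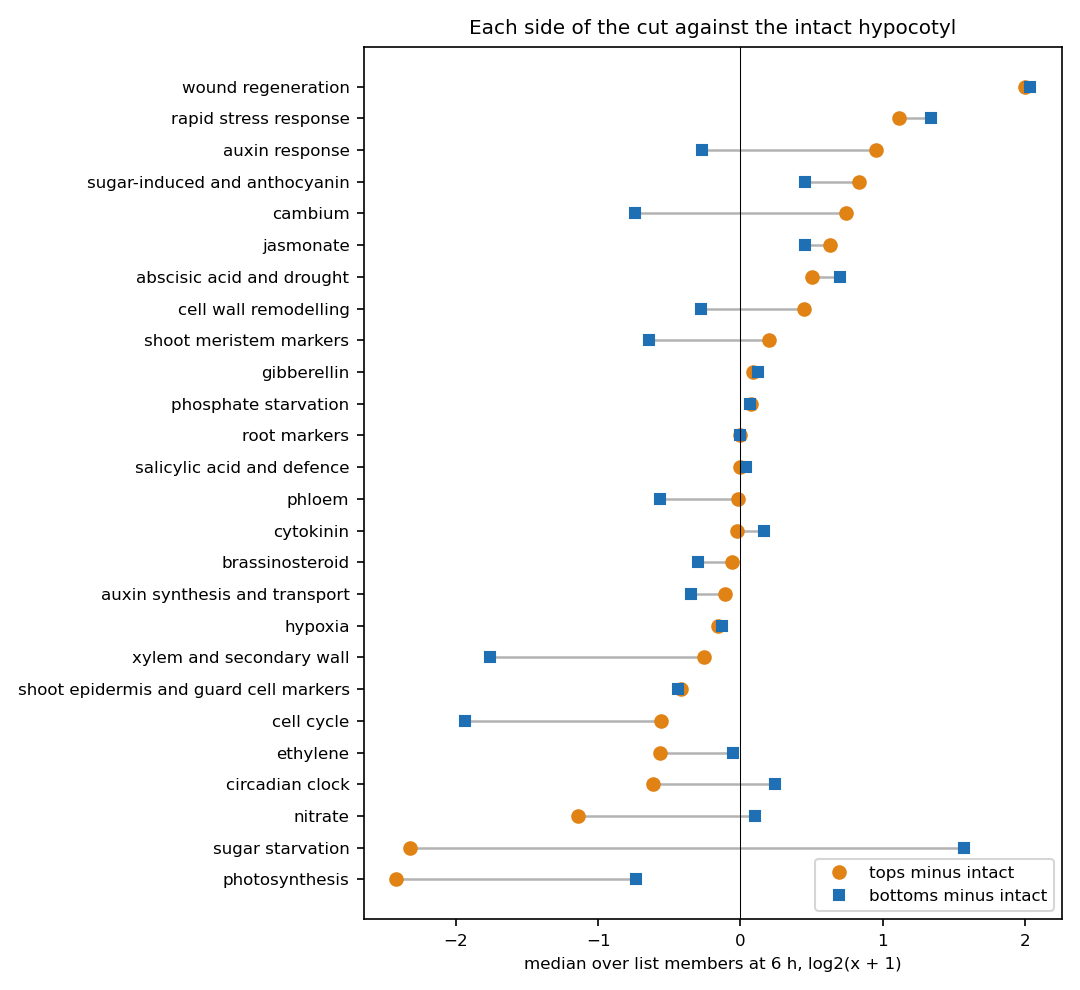
Median difference from the intact hypocotyl at 6 h over the tested members of each list, in tops (orange circles) and bottoms (blue squares), on the log2(x + 1) scale; both share the same 2 intact libraries. Sugar starvation genes lie on opposite sides of 0, and wound regeneration genes lie alike above 0 on both sides. Photosynthesis genes lie lower in tops than in bottoms, and xylem and cell cycle genes lower in bottoms than in tops.

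The later times, which the 6 h contrast does not use, show how long these differences lasted. Shares are given for 12, 48, 120 and 240 h and first count the sign alone, called or not. Of the 7091 genes higher in tops at 6 h, 90.5%, 85.3%, 73.8% and 54.4% were also higher in grafted plants. Of all genes these shares were 51.5%, 56.9%, 60.03% and 47.6%. In separated plants the shares were 93.9%, 88.7%, 87.1% and 73.0%, against 53.5%, 57.9%, 60.8% and 55.3% of all genes. Called higher in grafted plants were 61.9%, 47.4%, 8.15% and 1.16% of the 7091, against 25.5%, 24.6%, 6.3% and 1.03% of all genes. At 72 h the grafted shares were 63.0% higher and 14.2% called, against 54.7% and 13.5% of all genes. In separated plants 74.5% were called higher at 120 h, against 47.0% of all genes. Of the 5329 genes lower in tops at 6 h, 60.6% were lower in grafted plants at 120 h and 9.8% called lower. The shares of all genes were 39.3% and 4.62%. The median difference of the sugar starvation list in grafted plants moved from -3.53 at 12 h through -2.53 at 48 h and -0.95 at 72 h to 0.03 at 120 h. At 120 h 2 of 27 genes were still called lower, beside 4.62% of all genes. In separated plants the median was still -3.84 at 120 h, with 25 called lower (27.5% of all genes), and -0.91 at 240 h. The auxin-response median in grafted plants went from 1.22 at 6 h to 0.12 at 48 h and then lay between 0.39 and 0.52 from 72 to 240 h, and in separated plants it was 2.67 at 48 h and 1.30 at 240 h. The photosynthesis median in grafted plants stayed between -1.62 and -2.05 until 72 h. All 33 genes were still called lower then, beside 12.95% of all genes. The median was -0.38 at 240 h, when none was called. In separated plants it went on to -6.11 at 120 h and was -3.01 at 240 h. The cell cycle median in separated plants rose to 3.91 at 120 h and was 2.07 at 168 h and 0.80 at 240 h, while in grafted plants it was at most 1.1, at 24 h. From 48 h separated tops also held root markers. Higher than in separated bottoms were 10 of 16 at 48 h and 16 of 16 at 120 h, beside 38.75% and 47.0% of all genes. The part of root markers in the late differences was not tested.

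**Figure D5:**
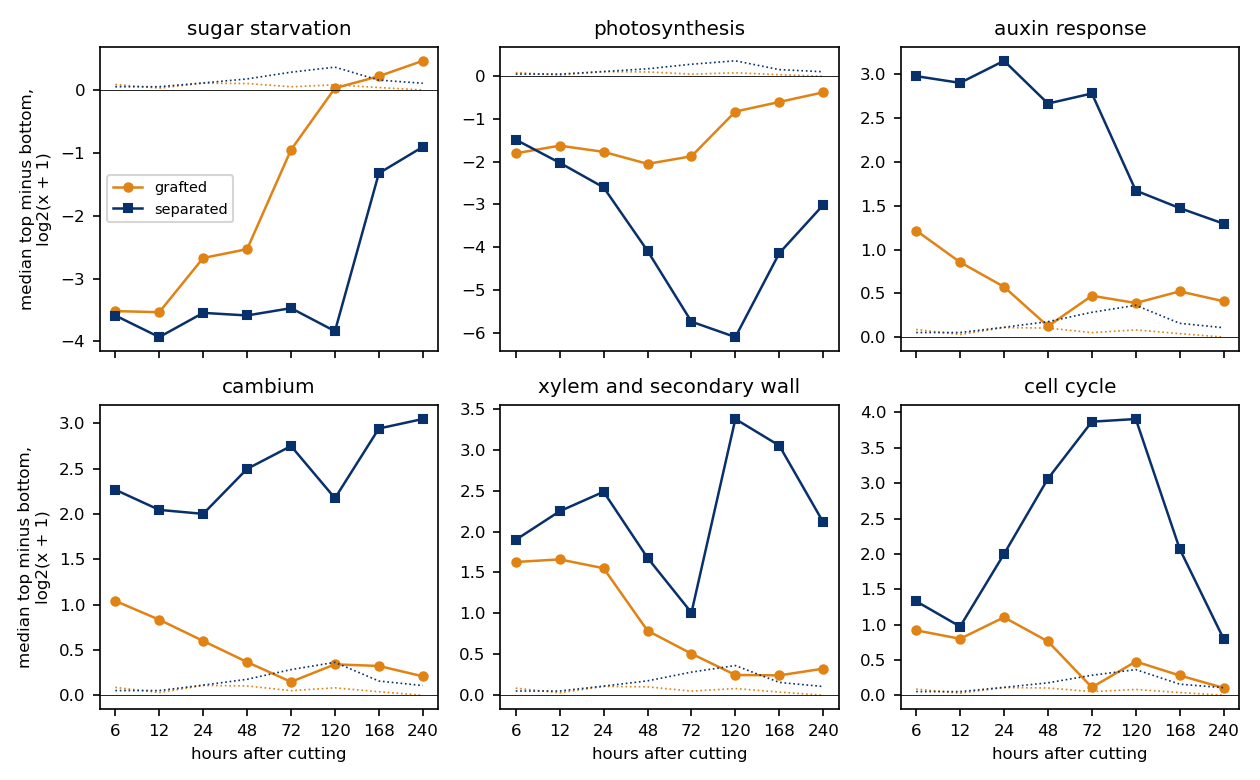
Median top minus bottom difference (vertical axis, log2(x + 1)) of 6 gene lists at 8 times after cutting (horizontal axis, hours, not to scale) in grafted (orange) and separated plants (dark blue), with 2 libraries a side and time; dotted lines are the median of all genes tested. At 120 h the grafted medians of 5 lists are between 0.03 and 0.48, and that of photosynthesis is -0.825, with 10 of 33 genes still called lower. The separated median of photosynthesis is then -6.11 and that of cell cycle genes 3.91.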

How the data were processed

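RNA sequencing libraries of Arabidopsis hypocotyls were analysed from a table of library-normalised values per gene (27416 genes, 82 libraries). Reads were trimmed with cutadapt 1.8.1 and aligned with Bowtie2 to TAIR10, per the submitters' processing notes. For the counter, annotation, strand setting and scaling nothing was stated in the labels. Values of overlapping, antisense and near-identical genes are therefore uncertain. The deposited values are treated as a score: they are not raw counts, and no count test was run. Each was multiplied by 1 constant (x), and log2(x + 1) was fitted with limma 3.58.1 (R 4.3.3; variance trend on mean level) over 41 groups, with 41 residual degrees of freedom. A gene entered the test where 2 or more libraries had x of 1 or more (20766 genes), and p-values were adjusted over all of them by Benjamini-Hochberg. Lists, promoters and figures were made in pandas 2.3.3, NumPy 2.4.6 and Matplotlib 3.10.9 under Python 3.11.15. Promoter sequence is from the RefSeq TAIR10.1 assembly.

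The text names the 12 largest and 12 smallest position differences among called genes (mean x at least 5, a reference symbol, all 4 tops on one side of all 4 bottoms), the 6 largest and 6 smallest for grafted minus separated, up to 4 members of each list and a panel. Other list members are given by value after they were seen. The members and lists were chosen with earlier results of these data known.

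In simulated data of 20766 genes for the position comparison, calls were made for 47 of 67 genes given a 1.5-fold change. They were made for 59 of 67 given 2-fold, for all 66 given 4-fold, and for 11 of 20566 left unchanged. For grafted minus separated 0 of 20766 were called. The simulated noise was Gaussian, with 1 spread per gene shared by all groups and no library that stands apart. The changed genes were drawn from those of higher mean level. These counts therefore do not give the error rates of the real tests, where a library does stand apart. Alternatives were the pseudocount, filter, scaling, the length-normalised table, the libraries fitted, a replicate block and leaving out each library. Some genes that these rules select are not reported here.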

Additional observations from a re-analysis of the deposited data

Results flagged for a closer look

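The difference between tops and bottoms differed between grafted and separated plants, by limma's test of the difference itself, in 175 genes that were higher and 395 that were lower for grafted minus separated. The named genes among them, with that difference on the log2(x + 1) scale, are given here as values.

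Lower values were those of the auxin-response genes IAA2 (-5.60), IAA1 (-4.20), HAT2 (-3.90), IAA19 (-3.45), IAA5 (-2.64) and IAA13 (-1.75). The auxin carrier PIN3 (-4.93) was also lower. Among cambium, phloem and vascular genes PXY (-3.57), TMO6 (-3.08), HB-8 (-2.87), ANT (-2.69), RUL1 (-2.52), BAM3 (-2.34) and AT4G29920 (-1.87) were lower. The growth and wall genes KDR (-2.72), BEE1 (-2.71), XTH9 (-2.44), XTH20 (-2.12) and CSLA02 (-1.29) were lower, as were the regeneration factors NAC071 (-2.27), AIL5 (-1.78) and AIL6 (-1.22). RGF9 (-4.74), NCED3 (-3.93) and EDS1 (-1.16) completed these.

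Higher values were those of MAPKKK19 (3.59), GPAT1 (3.42), LOX1 (3.29), ARR4 (3.1), MSRB6 (2.56), RAP2.6 (2.51), JAZ10 (2.33), CYP735A2 (2.14), ACS7 (2.1) and Rap2.6L (1.75). Of these 35 named calls 12 held under every alternative tried: ANT, ARR4, GPAT1, HAT2, HB-8, IAA1, IAA19, IAA2, MAPKKK19, PIN3, PXY and RGF9. With 13 a call was lost when some 1 library was left out, and with 19 in the fit on the 8 libraries alone. Without grafted bottom replicate 1 the calls of ACS7, CSLA02, CYP735A2, JAZ10, KDR, Rap2.6L and XTH9 were lost (limma, adjusted p 0.051 to 0.169).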

How the results depend on the processing

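Counts for position, for grafted and separated plants alone and for each side against intact tissue stayed within 1.5 times under every alternative run, and of the named position calls 124 of 135 held throughout. Counts for grafted minus separated (175 higher, 395 lower) moved more. They were 30 and 62 in the fit on the 8 libraries alone, and with 1 library left out they ranged from 85 to 201 higher and from 253 to 729 lower, 729 being without grafted bottom replicate 2 and 85 without grafted top replicate 1. With the replicate number as a block they were 283 and 545. Same-numbered grafted tops and bottoms deviated together with r of 0.15 to 0.51 over the 8 times, separated ones with r of 0.03 to 0.26, and separated tops and grafted bottoms of 6 h with -0.01. As r was not over 0.1 for each pair, the numbers were not taken to pair the libraries. LOX2 reversed for position, from -1.75 to 0.73, without grafted bottom replicate 1, where it was high. Over the fits that left out 1 library it ranged from -4.22 to 0.73. Leaving out grafted bottom replicate 1, for lists an alternative chosen after seeing the data, also moved counts of genes lower in tops from 5 to 2 (gibberellin), 1 to 2 (salicylic acid), 6 to 3 (phloem) and 2 to 1 (phosphate), and higher from 5 to 8 (shoot epidermis), among others. For grafted minus separated it moved wound regeneration genes from 4 to 2 higher and cell wall genes from 2 to 1 lower. Depth limits genes with x under 1, which stands for 8.88 to 14.7 reads.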
